A study of Mus musculus with 4 samples.

Results

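Lalba-high luminal cells of mouse mammary organoids were described in 4 single-cell RNA libraries. The cells were chosen by measured values. Within each library a cell was kept when it had 1000 to 6000 detected genes and under 5% mitochondrial UMIs, UMIs being the molecule barcodes that count transcripts. It was called luminal when it held under 300 counts per 1000000 UMIs (CPM) of Krt14, a basal keratin, under 300 CPM of Areg, a growth factor of hormone-receptor-positive (HR+) luminal cells, and under 50 CPM of Tmigd1 and Sez6 together, which mark another luminal group. Cells over 100 CPM in total of the mitotic genes Cenpf, Ccnb2, Cdc20 and Birc5 were also left out. Of 33268 deposited cell barcodes, 17360 passed the filters and 10384 were luminal by these limits. Of those, 1347 held at least 1000 CPM of Lalba and formed the Lalba-high set, which was 7.76% of filtered and 13.0% of luminal cells. They were compared with the 7621 luminal cells under 200 CPM of Lalba, called Lalba-low, within the same library, and 1416 luminal cells lay between the limits.

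The organoids were grown in Matrigel from single cells of mammary glands of virgin female mice, either wild-type or carrying a monoallelic germline truncating mutation (Brca2mut/WT), so that every cell of a mutant organoid carries it. HU-treated organoids received 1 mM hydroxyurea, which stalls DNA replication, for 24 h, and controls did not. In the study this exposure was repeated at serial passages and early and late passages were sequenced, so a late organoid had met HU several times. The 4 libraries were wild-type control, wild-type HU, Brca2mut/WT control and Brca2mut/WT HU, and values below follow that order. Every library pooled organoids that had been frozen, thawed and cultured for 3 days, and carried 4 antibody tags whose key was not given in the sources used here, so the tagged cells are called pools 1 to 4. The study states that its organoid experiments used aged mice. There was 1 library per condition, the sources used here do not tie a passage to a library, and no comparison between conditions was tested. The Lalba-high cells numbered 324, 432, 252 and 339, with 8833951, 11668245, 7235102 and 10762695 UMIs in all. Between 16 and 30 cell barcodes were shared by any pair of libraries.

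Lalba encodes alpha-lactalbumin, the regulatory subunit that turns the galactosyltransferase B4galt1 into lactose synthase in the Golgi. It is a milk gene of hormone-receptor-negative (HR-) luminal cells, the alveolar lineage of the gland, and its full activation is known to need prolactin signalling through Stat5 in pregnancy and lactation. Milk also carries caseins, whey proteins and fat, and their export loads the endoplasmic reticulum, whose chaperones are induced by the unfolded protein response. In virgin glands and in culture, HR- luminal progenitors are known to express some milk genes without lactating.

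By construction the 2 sets differ in Lalba, whose values are given as a description. Lalba (chr15:98480400-98482721, reverse strand, GRCm38) had no UMI in 50.03%, 46.0%, 54.5% and 43.4% of all luminal cells. In Lalba-high cells the median was 1962, 2418, 2056 and 2460 CPM, the lowest values were just over the limit, and the highest cell of each library reached 12356, 19159, 12911 and 14632 CPM. Those cells held 75.4%, 84.0%, 78.6% and 87.6% of the Lalba UMIs of luminal cells. Summed over cells, Lalba stood at 2618, 3124, 2565 and 3248 CPM in the Lalba-high set. It stood at 27.6, 27.5, 23.7 and 30.1 CPM in the Lalba-low set. In basal cells with at least 1000 CPM of Krt14, which should lack the gene, it stood at 14.3, 27.4, 8.19 and 21.6 CPM. The Lalba-low level was close to the basal level in the wild-type HU library and above it in the other 3. With every cell thinned to 5000 UMIs and shallower cells left out, a Lalba UMI was found in 11.6%, 11.4%, 10.7% and 10.99% of Lalba-low cells and in 6.96%, 4.52%, 2.78% and 4.27% of the basal cells. No gap separated the sets: luminal cells filled every range between 200 and 1000 CPM, 61, 54, 37 and 35 cells lay from 800 to 1000 CPM, just outside the limit, and 49, 65, 41 and 43 cells from 1000 to 1250 CPM, just inside it. Of the filtered cells over the Lalba limit, 37, 30, 31 and 33 exceeded the limit on Tmigd1 and Sez6 and 22, 33, 17 and 18 that on mitotic genes, and these were not members.

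**Figure D1:**
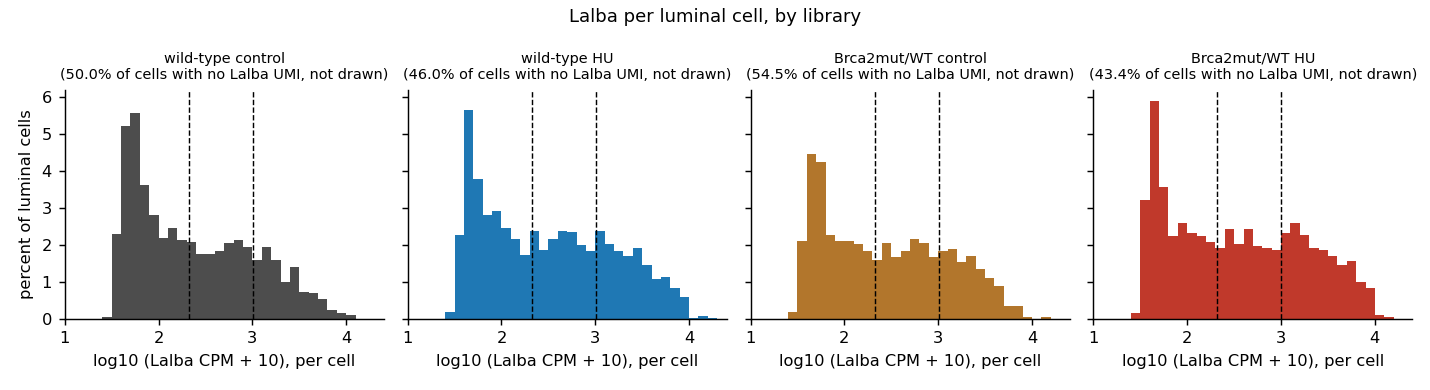
Percent of luminal cells (y axis) by log10 of Lalba CPM plus 10 per cell (x axis), 1 panel per library; dashed lines mark 200 and 1000 CPM, and cells with no Lalba UMI (43.4% to 54.5% of luminal cells) are not drawn. The bars run through both lines without a gap.

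The other markers set for the secretory label gave a mixed picture. Csn3 (chr5:87925579-87932665, forward strand), which encodes kappa-casein, the casein that coats milk micelles, stood at 25913, 23099, 21557 and 24895 CPM in Lalba-high cells. In Lalba-low cells it stood at 20728, 17791, 18527 and 18636 CPM. The Lalba-high set was above its own Lalba-low set in every library, and its lowest library was also above the highest Lalba-low library (log2 difference 0.40 ± 0.04 SE, adjusted p = 9.86e-08, edgeR's quasi-likelihood test with Benjamini-Hochberg adjustment, n = 4 libraries per set). Csn3 was therefore abundant in both sets, and 79.2%, 72.9%, 72.6% and 71.2% of Lalba-low cells held at least 10000 CPM of it, against 96.3%, 90.7%, 87.7% and 97.3% of Lalba-high cells. Csn1s1 (chr5:87666208-87682578, forward strand), which encodes alpha-S1-casein, stood at 2427, 2073, 1029 and 1211 CPM in Lalba-high cells. Its Lalba-low values were 1743, 1396, 1204 and 908 CPM. Csn1s1 was higher in the Lalba-high set of 3 libraries and lower in the Brca2mut/WT control, and in 7 of 10 pools of adequate size (0.38 ± 0.08 SE, adjusted p = 0.00150). The call was lost in DESeq2 and in the fit without the library block.

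Ltf (chr9:111019271-111042767, forward strand), which encodes the iron-binding whey protein lactoferrin, went the other way. It stood at 15.96, 22.5, 13.5 and 14.6 CPM in Lalba-high and 51.9, 95.8, 41.9 and 34.0 CPM in Lalba-low cells. The ranges did not overlap, and Ltf was lower in Lalba-high cells of all 10 pools (log2 difference -1.66 ± 0.09 SE, adjusted p = 1.63e-10). A Ltf UMI was found in 19.1%, 21.1%, 13.9% and 14.2% of Lalba-high cells and in 24.5%, 28.2%, 18.6% and 20.3% of Lalba-low cells. Thinned to 5000 UMIs, the shares were 7.12%, 6.79%, 5.18% and 3.54% in Lalba-high, 10.9%, 13.1%, 8.47% and 7.38% in Lalba-low and 1.28%, 1.46%, 1.98% and 1.90% in basal cells. In CPM, basal cells stood at 4.26, 5.20, 32.9 and 14.5, so that the Lalba-high level was below the basal one in the Brca2mut/WT control and within 1 CPM of it in Brca2mut/WT HU. The genes of full lactation were nearly silent. The beta-casein gene Csn2 was at 0.113, 0.343, 0 and 0.0929 CPM and the whey acidic protein gene Wap at 0.226, 0.686, 0.691 and 0.279 CPM in Lalba-high cells, and Glycam1 had no UMI there in any library. For Csn2 the floor of 3 counts corresponds to 0.340, 0.257, 0.415 and 0.279 CPM. On these values the cells are called Lalba-high, not secretory.

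Of the milk protein list, 11 of 23 genes passed the filter on low values (at least 5 CPM in at least 4 of the 8 sums). Of those, 5 were higher and 5 lower in Lalba-high cells, with a median log2 difference of -0.18, beside -0.00093 over all genes. Without the library block 2 were higher and 5 lower. Without the wild-type control library the median was 0.11, and with library and tag pool as blocks it was 0.05, with 6 higher and 5 lower in both, so the sign of the median was not stable. Across all 9315 genes tested, 19.9% were higher (1852) and 19.8% lower (1843) at adjusted p under 0.05. The counts of every list below stand beside these shares. Scaled by library totals in place of TMM, the split was 1097 higher and 2832 lower, so 27.9% of calls were higher in place of 50.1%. Besides Csn1s1 and Csn3, the genes that rose were Mfge8, a fat globule membrane protein (0.18), Xdh, which is needed for fat globule secretion (0.35), and Trf, the iron carrier transferrin (0.22). Those that fell, besides Ltf, were Spp1, which encodes osteopontin (-2.71), the whey acidic protein family members Wfdc3 (-1.36) and Wfdc18 (-0.81), and Muc15 (-0.29). Wfdc18 stood at 1335 ± 187 CPM in Lalba-high and 2434 ± 161 CPM in Lalba-low cells (mean ± SD, n = 4 libraries).

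The 300 bases around the RefSeq start of Lalba and Csn1s1 (250 before and 50 after, GRCm38.p6) are shown because Lalba chose the cells and Csn1s1, a milk gene with the same known regulator, did not follow it in every library. They lie at chr15:98482634-98482933 on the reverse strand and chr5:87665958-87666257 on the forward strand, and capitals mark matches to TTCNNNGAA, the palindromic element that Stat5 binds.
Lalba: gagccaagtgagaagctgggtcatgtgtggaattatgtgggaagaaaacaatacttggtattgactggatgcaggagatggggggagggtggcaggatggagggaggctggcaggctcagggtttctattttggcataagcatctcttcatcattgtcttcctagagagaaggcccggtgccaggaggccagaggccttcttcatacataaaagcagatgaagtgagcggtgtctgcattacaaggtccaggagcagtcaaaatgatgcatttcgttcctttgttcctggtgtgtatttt
Csn1s1: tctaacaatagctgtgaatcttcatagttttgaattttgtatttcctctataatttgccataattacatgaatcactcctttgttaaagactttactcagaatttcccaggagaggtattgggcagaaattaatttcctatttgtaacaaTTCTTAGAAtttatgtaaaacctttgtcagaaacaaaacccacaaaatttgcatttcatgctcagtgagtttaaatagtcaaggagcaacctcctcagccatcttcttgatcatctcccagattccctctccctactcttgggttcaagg
The Csn1s1 window held 1 match, which began 100 bases before the start (position -100), and the Lalba window held 0. The same letters occurred in 8.30% of 32851 promoters. They occurred in a promoter of 5 of the 17 milk protein genes that matched (29.4%), a count of genes and not of promoters. A match is a description of letters only.

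Genes of the lactose and prolactin pathways moved in part. Of all genes tested, 19.9% were higher and 19.8% lower. Of 13 tested genes of lactose synthesis and sugar supply, 5 were higher and 0 lower, with a median log2 difference of 0.003. Scaled by library totals the list had 2 higher and 4 lower, in DESeq2 2 and 0, and without the library block 1 and 0. Those higher included the galactokinase gene Galk1, the hexokinase gene Hk1 and B4galt1. The catalytic subunit gene B4galt1 rose by only 0.11 (adjusted p = 0.0263), with 131, 110, 122 and 124 CPM against 133, 113, 117 and 111 CPM. Before TMM scaling it was higher in 2 of 4 libraries only, and this call was not kept when both sets were limited to cells with at least 10000 CPM of Csn3 (-0.003).

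Of 18 tested genes of the prolactin and Stat5 pathway, 7 were higher and 5 lower (median 0.05), beside 19.9% and 19.8% of all genes. The list had 5 and 2 in DESeq2, and the same counts without the library block. Under library totals the median was -0.01. Those higher included Id2, an inhibitor of basic helix-loop-helix factors needed for alveolar growth, at 372, 431, 463 and 436 CPM against 247, 320, 302 and 300 CPM (0.61 ± 0.03 SE, adjusted p = 1.15e-10). The receptor of RANKL, Tnfrsf11a (0.44), and the transcription factors Elf5 (0.34), Gata3 (0.27), Stat5b (0.20) and Nr3c1, the glucocorticoid receptor (0.14), also rose, as did the feedback inhibitor Socs2 (0.23). Every Lalba-high value of Id2 was above every Lalba-low value. The feedback inhibitor Socs3 fell by 1.30 on the log2 scale, the growth hormone receptor Ghr by 0.36 and the prolactin receptor Prlr by 0.13, and Jak2 and Nfic were also lower. Stat5a itself stood at 24.7 ± 0.50 CPM against 23.4 ± 1.14 CPM and did not pass the test (0.14, adjusted p = 0.0568).

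Of 21 tested genes of milk fat synthesis, 11 were higher, 1 was lower and 9 did not pass the test, with a median of 0.14. Of all genes tested, 19.9% were higher and 19.8% lower. Insig1, which holds back sterol synthesis, rose by 0.67 (33.9 ± 3.23 against 22.2 ± 1.82 CPM). Thrsp, a lipogenic factor, stood at 79.9, 153, 95.6 and 111 CPM against 46.5, 98.9, 67.9 and 82.6 CPM. Its ranges overlapped between libraries, and the Lalba-high value was higher within each library (0.64 ± 0.05 SE, adjusted p = 5.67e-09). The elongase Elovl6 (0.53) and the fatty acid synthase gene Fasn (0.24) rose, as did Scd2, Elovl1, Acss2, Plin2, Plin3, Fabp5 and Me1, while the desaturase Scd1 fell by 0.42. Without the library block 5 genes were higher and 1 lower.

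Genes of the secretory pathway and unfolded protein response rose or did not pass the test. Of 28 tested genes, 19 were higher and 0 lower, with a median of 0.23, beside 19.9% and 19.8% of all genes. In every alternative fit 17 to 20 were higher and 0 lower. Xbp1, the transcription factor that widens the secretory apparatus, stood at 555, 471, 469 and 556 CPM in Lalba-high cells. In Lalba-low cells it stood at 387, 336, 348 and 383 CPM, below all the Lalba-high values (0.56 ± 0.03 SE, adjusted p = 1.97e-10). Rises were also measured for Sdf2l1 (0.45), Manf (0.41), Creld2 (0.37), the lectin chaperone Calr (0.36), the Hsp90 of the endoplasmic reticulum, Hsp90b1 (0.35), and the disulfide isomerase Pdia6 (0.33). Hspa5, the master chaperone BiP, stood at 799, 726, 747 and 903 CPM against 718, 713, 637 and 722 CPM (0.25 ± 0.04 SE, adjusted p = 4.45e-05). It was higher within each library, by little in the wild-type HU library. Atf4 (-0.00) and Dnajb9 (-0.02) did not pass the test, nor did Sec61a1, Canx, Herpud1, Ssr1, Atf6, Creb3 and Rrbp1.

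The promoters of Hspa5 (chr2:34771840-34772139, forward strand) and Calr (chr8:84846882-84847181, reverse strand) are printed as members that rose together and whose windows hold the endoplasmic reticulum stress element, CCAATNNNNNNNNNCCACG, on either strand. Capitals mark the match.
Hspa5: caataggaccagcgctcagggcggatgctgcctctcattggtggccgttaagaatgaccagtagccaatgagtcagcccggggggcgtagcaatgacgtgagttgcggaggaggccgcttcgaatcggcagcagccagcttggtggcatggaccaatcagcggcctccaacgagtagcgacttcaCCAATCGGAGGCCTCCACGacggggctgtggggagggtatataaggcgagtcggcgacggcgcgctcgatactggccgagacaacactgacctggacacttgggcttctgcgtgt
Calr: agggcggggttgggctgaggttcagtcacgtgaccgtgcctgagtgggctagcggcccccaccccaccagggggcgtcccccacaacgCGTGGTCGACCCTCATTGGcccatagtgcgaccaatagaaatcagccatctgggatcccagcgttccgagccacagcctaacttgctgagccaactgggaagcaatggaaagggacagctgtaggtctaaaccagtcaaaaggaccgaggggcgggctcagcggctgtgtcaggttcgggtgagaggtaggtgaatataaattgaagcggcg
The match began at position -65 in Hspa5 and, on the opposite strand, at -162 in Calr. Counted by gene, the element was found in a promoter of 7 of 26 matched genes of the list (26.9%). Counted by promoter, it was found in 39 of all 32851 (0.119%), so the units differ. The genes with it were Hspa5, Hsp90b1, Dnajc3, Creld2, Pdia6, Calr and Canx, of which Canx did not pass the test between the sets.

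Among all genes, the 15 called genes with the largest rises among those with at least 20 CPM changed by 1.64-fold to 1.83-fold. St6galnac4, a sialyltransferase, stood at 58.4, 60.3, 69.0 and 53.3 CPM against 31.8, 32.5, 41.7 and 32.5 CPM (0.87 ± 0.05 SE, adjusted p = 1.16e-10). Npnt, an extracellular matrix ligand of integrins, stood at 177, 179, 165 and 204 CPM against 111, 111, 99.1 and 112.5 CPM (0.81 ± 0.04 SE, adjusted p = 1.57e-11). Ldhb, a lactate dehydrogenase subunit, stood at 162, 194, 189 and 200 CPM against 101, 114, 108 and 127 CPM (0.79 ± 0.03 SE, adjusted p = 3.98e-12). In these 3 genes every Lalba-high value was above every Lalba-low value, and the difference had the same direction in 10 of 10 pools. The others were the tetraspanin Tspan15 (0.86), the adrenergic receptor Adra2c (0.83), the cation channel Trpm3 (0.80), the spindle protein Spag5 (0.76), the serine synthesis enzyme Psat1 (0.76), Mcc (0.76), the intermediate filament Nes (0.75), Zfp385b (0.73), Tmem37 (0.72), the isoprenoid enzyme Fdps (0.72), the tubulin Tuba1a (0.72) and the secreted carbonic anhydrase Car6 (0.71). Only 6 genes were at least 2-fold higher, and they were named after their values were seen: Phyhipl, Col27a1, Tox3, Tox2, Rdh12 and Bend6, all under 20 CPM.

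Falls were larger than rises, with 177 genes at least 2-fold lower. Slpi, a secreted protease inhibitor, stood at 24.8, 22.2, 8.57 and 8.46 CPM against 204, 255, 176 and 175 CPM (-3.60 ± 0.12 SE). Spp1 stood at 289, 239, 186 and 143 CPM against 1203, 2632, 1222 and 1027 CPM (-2.71 ± 0.13 SE, adjusted p = 4.23e-11). Sparc, a matrix protein of basal cells and stroma, stood at 10.98, 9.26, 16.3 and 7.90 CPM against 124, 129, 140 and 206 CPM (-3.74). The sets did not overlap in any of these. The remaining falls among the 15 largest were in Hp, the haemoglobin scavenger haptoglobin (-4.22), the lipid carrier Apoe (-3.90), the activin antagonist Fst (-3.85), Myl9 (-3.59), Palld (-3.16), Col18a1 (-2.90), the smooth muscle actin Acta2 (-2.73), the chemokine Cxcl12 (-2.73), Pla2g7 (-2.71), Ly6d (-2.70), the metalloproteinase inhibitor Timp3 (-2.56) and Rflna (-2.36). All were lower in 10 of 10 pools except Acta2, which was higher in 1. Hp, Apoe and Fst were under 5 CPM in all 4 Lalba-high sums and Myl9 in 3 of 4, so these genes passed the filter on low values through the Lalba-low cells and had to differ. Their values, and the count of large falls, are a description.

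The UMIs of these genes were unevenly spread over the Lalba-low cells. The 5% of Lalba-low cells richest in a gene held 95.2% to 100% of its UMIs for Hp across the 4 libraries, 88.6% to 95.7% for Apoe, 91.2% to 96.0% for Acta2, 77.8% to 85.2% for Slpi, 74.8% to 79.0% for Ltf and 63.1% to 71.2% for Spp1. It was lower, though still above 50%, for Col18a1 (50.7% to 58.9%), Sparc (51.5% to 64.5%), Pla2g7 (54.0% to 59.8%), Rflna (55.4% to 58.4%) and Cxcl12 (58.0% to 66.3%). The same share was 12.8% to 14.2% for Csn3, 18.6% to 20.1% for Xbp1 and 20.8% to 22.3% for Ldhb. In Lalba-high cells the richest 5% held 76.9%, 69.0%, 80.9% and 81.0% of the Spp1 UMIs, 25.1%, 50.2%, 37.1% and 42.9% of those of Slpi and 23.1% to 28.3% of those of Wfdc2, so that Spp1 was uneven in both sets and Slpi less so in Lalba-high cells. Stricter luminal limits asked for at least 500 CPM of Krt8 and Krt18 together. They also asked for under 100 CPM of Krt5, Acta2, Col1a1, Col3a1 and Dcn together. With both sets held to these limits, Slpi (-3.29), Spp1 (-2.79), Ltf (-1.79) and Sparc (-2.83) stayed lower. Acta2 no longer passed the filter, which the limits set by cutting on it. With both sets limited to at least 10000 CPM of Csn3, a limit added after seeing the data, the differences were -2.45 for Slpi, -2.51 for Spp1 and -1.77 for Ltf.

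**Figure D2:**
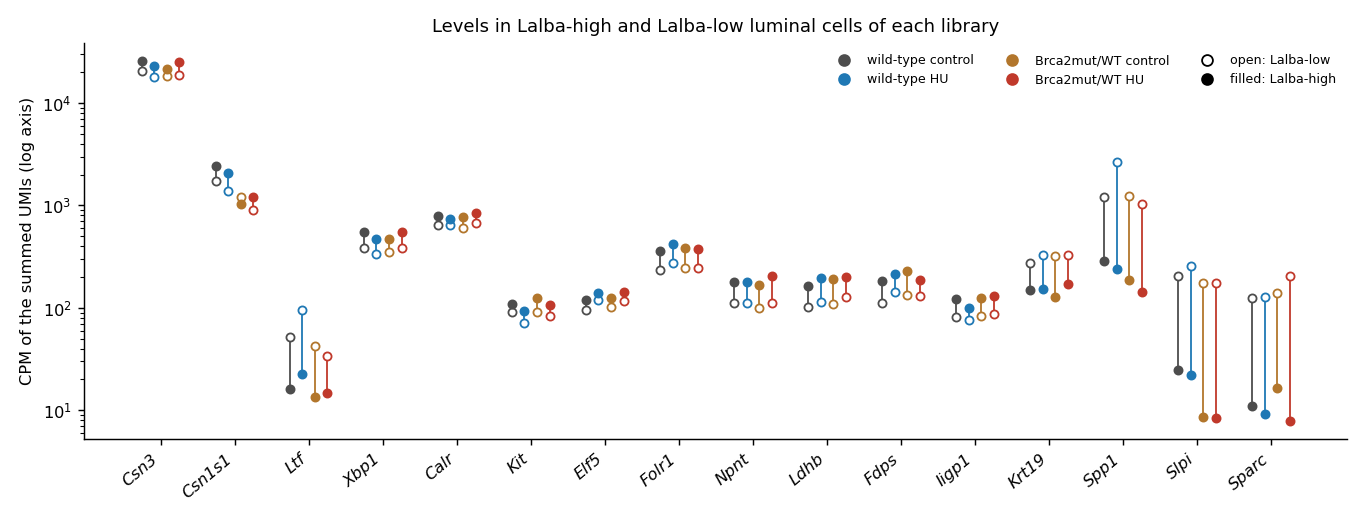
CPM of the summed UMIs (log y axis) of 16 named genes in Lalba-high (filled) and Lalba-low (open) luminal cells, 1 pair of points per library. Csn3, Xbp1, Ldhb and Npnt lie somewhat higher in the Lalba-high set of every library, while Ltf, Spp1 and Slpi lie lower.

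The markers of HR- luminal cells moved in both directions (8 higher and 6 lower of 18 tested, median 0.03, and 4 and 4 without the library block). The sign of this small median also turned, to -0.03 under library totals and -0.02 with no upper gene limit. The list includes the general luminal keratins Krt8 (higher) and Krt19 (lower), which do not set HR- cells apart from other luminal cells. Kit, the receptor that marks luminal progenitors, stood at 109, 93.3, 125 and 106 CPM against 91.1, 71.5, 91.2 and 82.3 CPM (0.43 ± 0.04 SE, adjusted p = 3.05e-08). Within each library the Lalba-high value was higher, and the lowest Lalba-high value exceeded every Lalba-low value by a small margin only. Elf5, Aqp5, Plet1, Trf, Lcn2, Mfge8 and Krt8 also rose, by 0.09 to 0.34. Those that fell were the integrin Itga2 (-1.57, under 5 CPM in all 4 Lalba-high sums), Krt19 (-0.99), Wfdc18, the lipopolysaccharide co-receptor Cd14 (-0.69), the retinaldehyde dehydrogenase Aldh1a3 (-0.34) and Tspan8 (-0.23). Itga2 passed the filter through the Lalba-low cells, so the count of 6 lower genes and the median of this list are a description. Krt19 stood at 150, 151, 129 and 172 CPM against 272, 331, 317 and 331 CPM, with no overlap. Of 6 tested transport genes, 3 were higher and 3 lower, and the folate receptor Folr1 stood at 360, 417, 386 and 376 CPM against 232, 275, 246 and 243 CPM (0.69 ± 0.03 SE, adjusted p = 4.62e-12). The sodium pump subunit Atp1b1 fell by 0.56 on the log2 scale, from 137 ± 13.0 CPM in Lalba-low to 88.4 ± 6.41 CPM in Lalba-high cells (mean ± SD, n = 4 libraries). Of 9 tight junction genes Cldn1 rose (0.48) and Cldn4 fell (-1.62), and neither count exceeded the share of all genes. Cldn4 was also under 5 CPM in all 4 Lalba-high sums, so its fall is a description.

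Genes of the interferon response were higher in 11 of 18 cases and lower in 1 (median 0.19), beside 19.9% and 19.8% of all genes. The immunity-related GTPase Iigp1 stood at 123, 100, 125 and 130 CPM against 81.0, 75.9, 84.0 and 87.7 CPM, without overlap (0.60 ± 0.04 SE, adjusted p = 7.06e-10). Rsad2 (0.39), Oasl2 (0.32), Gbp3 (0.30), Ifit1 (0.29) and the ubiquitin-like Isg15 (0.27) also rose, and Gbp2 fell by 0.30. Without the library block 6 were higher and 0 lower. The promoter of Isg15 (chr4:156200769-156201068, reverse strand) is printed as the example of this list whose window holds the core of the interferon-stimulated response element, GAAANNGAAA, with overlapping matches in capitals.
Isg15: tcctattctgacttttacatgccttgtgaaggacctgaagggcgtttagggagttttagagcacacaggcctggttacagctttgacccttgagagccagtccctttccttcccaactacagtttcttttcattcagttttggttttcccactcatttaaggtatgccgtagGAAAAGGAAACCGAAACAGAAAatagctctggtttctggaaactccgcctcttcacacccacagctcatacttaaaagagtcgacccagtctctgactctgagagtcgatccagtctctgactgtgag
It held 3 matches, of which the first began at position -78 and the second at -72. The letters were found, on either strand, in a promoter of 9 of 14 matched genes of the list (64.3%). They were found in 3.44% of all promoters, a count of promoters and not of genes.

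Several stress and defence lists held genes that fell in Lalba-high cells. Of all genes tested, 19.9% were higher and 19.8% lower. Of 15 tested antimicrobial and acute phase genes, 4 were called higher and 8 lower, a description only, since Hp was under 5 CPM in all 4 Lalba-high sums and C3 in 3 of 4, and Cfb in 3 of 4 Lalba-low sums. Wfdc2, a whey-acidic-protein-like inhibitor, fell by 2.04 and the complement gene C3 by 1.87, together with Hp, Slpi, Ltf, Cd14, Cp and Lbp, whereas the siderophore binder Lcn2 (0.18), the chitinase-like Chil1 (0.28), Cfb (0.50) and Saa2 (0.50) rose. Of 13 genes of involution and the Stat3 pathway, 3 were higher and 9 lower (median -0.37), including Timp1 (-1.85, under 5 CPM in all 4 Lalba-high sums), the lysosomal protease Ctsd (-0.56) and the oncostatin receptor Osmr (-0.50). Timp1 passed the filter through the Lalba-low cells, so the count of 9 and the median of this list are a description. Igfbp5, which blocks growth factor survival signals, rose by 0.21. Of 13 CDK inhibitor and p53 target genes, 1 was higher and 9 lower (median -0.35). Cdkn1a, which encodes the cell cycle inhibitor p21, stood at 105, 182, 143 and 151 CPM against 173, 298, 180 and 281 CPM. It was lower in Lalba-high cells of each library, with overlap between the sets (-0.61 ± 0.05 SE, adjusted p = 8.79e-08). Phlda3 (-0.95), Cdkn2b (-0.77) and Mdm2 (-0.38) fell, and the INK4 inhibitor Cdkn2c rose by 0.49. Without the library block 1 was higher and 4 lower.

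Of 13 hypoxia and glycolysis genes, 3 were higher and 7 lower (median -0.12). The share of higher genes was near that of all genes (19.9%), of which 19.8% were lower. The glycolytic Ldha (0.27), Eno1 (0.18) and Pfkl (0.17) rose, while the hypoxia targets Ndufa4l2 (-1.60), Adm (-1.29), Vegfa (-0.67), Car9, Bnip3, Egln3 and Ankrd37 fell. Without the library block 1 was higher and 2 lower. Of 14 genes of the dissociation response, 5 were higher and 5 lower, and 0 and 4 without the block. Of 12 S phase genes 3 were higher, near the share of all genes, and 0 lower. The 1 homologous recombination gene that passed the filter, Rad51d, was higher by 0.18. Both counts of higher genes were 0 in DESeq2, under library totals and without the library block. Of 2 tested MHC class II genes, H2-Ab1 was lower, a call lost without the library block, with no upper gene limit and at a Lalba limit of 500 CPM, where 1 gene of the list was higher. Of 5 tested genes that mark neighbouring luminal groups, Cck and Cd14 were lower.

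**Figure D3:**
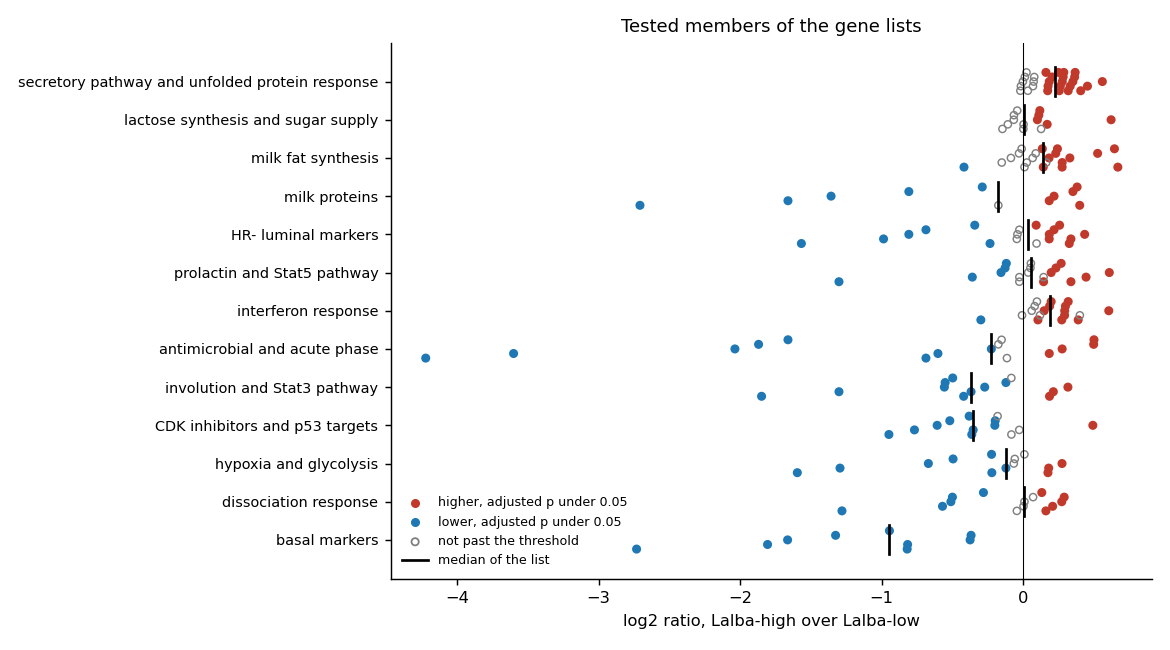
Log2 ratio of Lalba-high over Lalba-low cells (x axis) for each tested gene of 13 lists, filled where it passed the test (red higher, blue lower), with a black bar at each list's median. The secretory pathway list has 19 called genes above 0 and 0 below, and the list of CDK inhibitors and p53 targets 1 above and 9 below. Of all genes tested, 19.9% were called higher and 19.8% lower.

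Markers of other cell types moved with these results. Of 13 listed basal markers 9 were tested and called lower in Lalba-high cells, with 6 called in DESeq2 and 6 without the library block. Id4 and Cav1 were under 5 CPM in all 4 Lalba-high sums and Krt17 in 3 of 4, so they passed the filter through the Lalba-low cells and the count is a description. The sum of the listed markers was 104, 88.6, 105 and 72.8 CPM against 206, 220, 210 and 310 CPM, with Acta2 reaching 135 CPM in Brca2mut/WT HU Lalba-low cells. Under the stricter luminal limits the log2 differences of Krt5 (0.04) and Mylk (0.02) turned to the other side of 0. Krt5 is a gene on which those limits cut, so its change was set in part by the limits. All 3 tested HR+ luminal markers were lower, among them Ly6a (-1.95) and Prlr (-0.13), though only 1 of 3 was called in DESeq2 and 1 of 3 without the library block. The sum of the 11 listed was 124, 121, 118 and 121 CPM against 219, 211, 232 and 223 CPM. Of 3 tested squamous markers, Krt10 was higher and Krt6a and Sprr1a lower. Sprr1a was under 5 CPM in 3 of 4 Lalba-high sums, so its call is a description. The summed immune markers stood at 1.24 to 2.74 CPM in Lalba-high cells with Ptprc at 0, fibroblast markers at 2.14 to 4.64 CPM against 4.69 to 11.7 CPM, and endothelial and adipocyte markers at no more than 1.74 CPM in either set. Lalba-high cells were also deeper, with median UMIs of 26477.5, 26572.5, 28509 and 31703 against 23495, 23853, 23943 and 26019.5, had mitochondrial shares of 3.54%, 3.62%, 3.56% and 3.67% against 3.01%, 3.25%, 2.88% and 3.20%, and carried several antibody tags in 1.23%, 1.16%, 1.19% and 1.47% of cells against 3.26%, 2.83%, 2.93% and 3.57%. The part of these differences in the results was not tested beyond the alternatives given here.

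Other genes were compared between the ends of the range of Lalba within luminal cells, from cells with no UMI to those with 5000 CPM or more. Npnt ran from 93.1 to 200 CPM in the wild-type control, from 107 to 168 CPM in wild-type HU, from 86.8 to 185 CPM in the Brca2mut/WT control and from 95.3 to 217 CPM in Brca2mut/WT HU. Spp1 ran from 1372 to 239, from 2575 to 61.3, from 1435 to 29.0 and from 1257 to 69.4 CPM. Ltf ran from 54.6 to 11.9, from 101 to 19.9, from 47.7 to 9.66 and from 31.3 to 1.85 CPM. Npnt was thus higher and Spp1 and Ltf lower at the upper end of every library, while Csn1s1 had no common direction among cells above 1000 CPM of Lalba. The course between the ends was uneven, and Spp1 in wild-type HU stood at 4933 CPM in cells with 160 to 200 CPM of Lalba. The highest range held few cells, 34, 78, 18 and 68 in the 4 libraries.

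**Figure D4:**
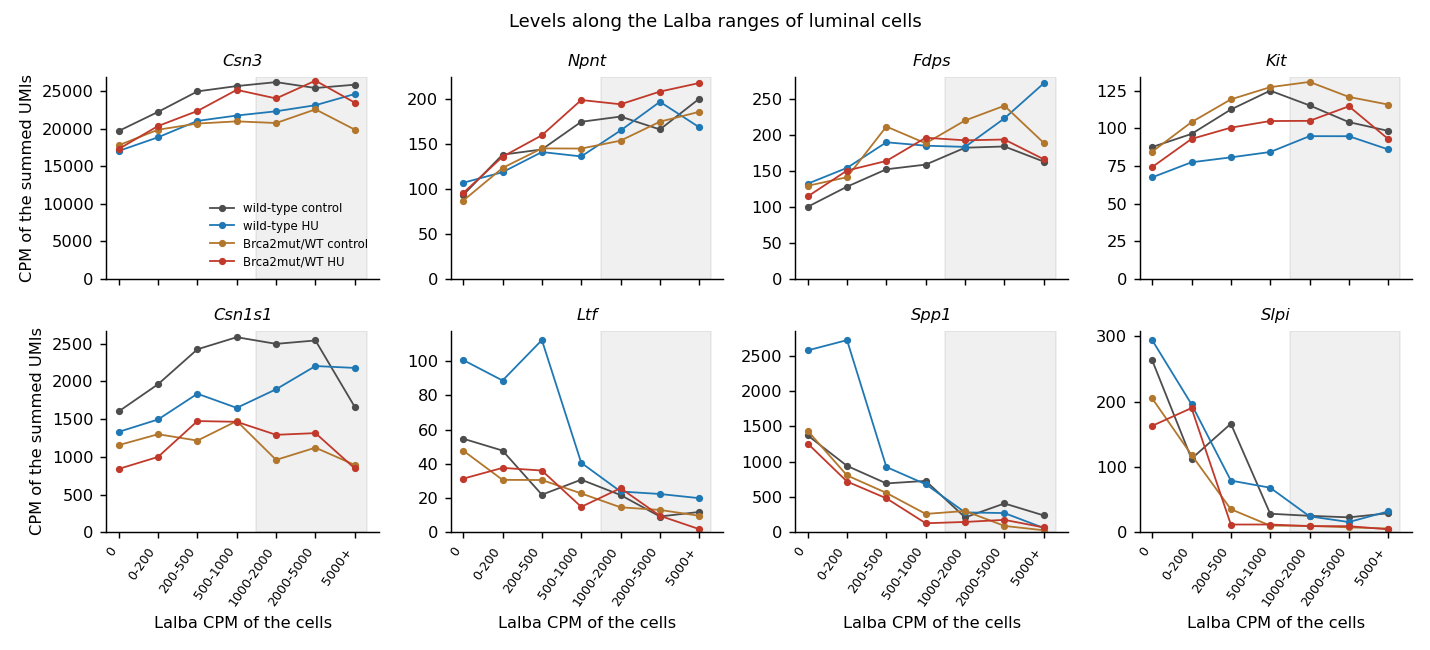
CPM of the summed UMIs of 8 genes (y axis) in luminal cells grouped by Lalba CPM (x axis), 1 line per library; shading marks the Lalba-high ranges. From the cells without a Lalba UMI to those with at least 5000 CPM, Npnt ends higher and Spp1, Slpi and Ltf lower in every library.

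The share of luminal cells that were Lalba-high was larger in both HU libraries. It was 9.88% (95% Clopper-Pearson interval 8.88% to 10.96%) in the wild-type control and 14.9% (13.6% to 16.2%) in wild-type HU, a ratio of 1.51 (1.32 to 1.73). It was 11.1% (9.80% to 12.4%) in the Brca2mut/WT control and 17.6% (15.9% to 19.4%) in Brca2mut/WT HU, a ratio of 1.59 (1.37 to 1.85). As a share of all filtered cells it was 6.099%, 9.36%, 6.09% and 10.3%. These intervals cover counting error only, and with 1 library per condition, treatment and library cannot be told apart. A share of cells cannot tell more Lalba-high cells from fewer of the other luminal cells.

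The antibody tag pools of a library did not all move alike. In pool 1 the share went from 10.4% to 19.8% in wild-type and from 11.6% to 17.5% in Brca2mut/WT libraries. In pool 3 it went from 9.79% to 15.1% and from 9.90% to 22.8%. In pool 4 it went from 11.01% (24 of 218 cells) to 6.56% (12 of 183) and from 18.8% (63 of 336) to 4.95% (5 of 101). Pools 1 and 3 were higher with HU and pool 4 lower in both genotypes. Pool 2 went from 10.1% to 11.5% in wild-type libraries, and in Brca2mut/WT libraries it held 1 Lalba-high cell each of 39 and 37 luminal cells, where 92.6% and 82.1% of its filtered cells were over the Tmigd1 and Sez6 limit. Without pool 3 the Brca2mut/WT ratio was 1.18 (0.965 to 1.45), and without pool 4 it was 1.86. No source used here says that a tag number stands for the same mice in different libraries.

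**Figure D5:**
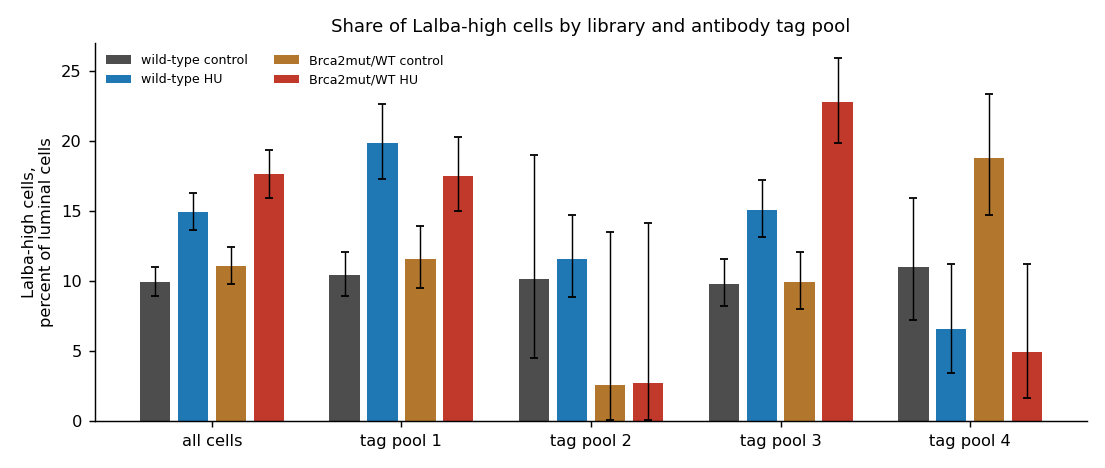
Lalba-high cells as a percentage of luminal cells in each library and in each antibody tag pool, with 95% Clopper-Pearson intervals as error bars. The library shares are 9.88%, 14.9%, 11.1% and 17.6%, and pools 1 and 3 are higher and pool 4 lower in the HU library of each genotype.

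Within Lalba-high cells few genes differed between libraries by 1.5-fold or more, among those with at least 20 CPM in at least 1 of the compared libraries. With HU against control, 0.719% of 5146 genes were higher (37) and 0.777% lower (40) in wild-type cells, and 0.384% of 5212 higher (20) and 0.787% lower (41) in Brca2mut/WT cells. With Brca2mut/WT against wild type, 0.406% of 5177 genes were higher (21) and 0.29% lower (15) in controls, and 0.136% of 5141 higher (7) and 0.506% lower (26) after HU. The split between genotypes in controls turned with the processing, to 13 higher and 18 lower under TMM scaling and 12 and 21 with no upper gene limit. For HU against control in Brca2mut/WT cells it was 24 higher and 26 lower with no upper gene limit. In wild-type cells the HU split also turned without tag pool 3, to 112 higher and 81 lower. These contrasts share libraries in pairs, and none has a replicate. Both HU contrasts passed the fold for 4 higher genes (0.0795% of 5032) and 7 lower genes (0.139%).

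The 4 genes that were higher in both HU libraries were the arrestin-domain gene Arrdc3, the linker histone Hist1h1c, the transcriptional cofactor Cited4 and the dynein assembly factor Dnaaf2. Hist1h1c stood at 32.5 (95% Poisson interval 28.8 to 36.5), 78.2 (73.2 to 83.4), 33.3 (29.2 to 37.8) and 90.9 CPM (85.3 to 96.7). Arrdc3 stood at 11.3 (9.21 to 13.8), 32.7 (29.5 to 36.1), 11.6 (9.26 to 14.4) and 32.9 CPM (29.6 to 36.5). Cited4 stood at 67.7, 115, 63.0 and 112 CPM and Dnaaf2 at 19.7, 30.6, 22.7 and 35.5 CPM. In each, both HU values lay above both control values. In the wild-type libraries Cited4 went from 56.7 to 119.9 CPM in pool 1 and from 89.8 to 107.0 CPM in pool 3. Its wild-type fold was thus not shared by these pools. Lalba-low cells of the same libraries held Arrdc3 at 21.3, 29.0, 21.1 and 32.4 CPM, so that it too was higher with HU there, from control values above those of Lalba-high cells. The other 3 genes were also higher with HU in Lalba-low cells, where Hist1h1c stood at 42.0, 79.5, 43.3 and 95.7 CPM, Cited4 at 68.3, 120, 56.6 and 92.3 CPM and Dnaaf2 at 20.7, 29.5, 21.5 and 33.0 CPM.

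The 5 named genes that were lower in both HU libraries were Letm2, the lipolysis inhibitor G0s2, the acute phase gene Saa1, the nuclear receptor Nr4a1 and the ERK phosphatase Dusp6. Letm2 stood at 33.1 (29.4 to 37.1), 10.4 (8.60 to 12.4), 27.5 (23.8 to 31.6) and 11.1 CPM (9.24 to 13.3). Dusp6 stood at 218, 142, 222 and 128 CPM, Saa1 at 112, 66.0, 96.1 and 56.5 CPM, G0s2 at 91.2, 60.2, 85.8 and 40.6 CPM, and Nr4a1 at 88.1, 56.5, 76.7 and 42.7 CPM. Both HU values lay below both control values in all 5. Letm2 was lower with HU in Lalba-low cells too, at 36.0, 12.4, 32.8 and 13.96 CPM, as were G0s2, Nr4a1 and Dusp6. Saa1 was not, at 95.5, 106, 79.6 and 83.4 CPM there. In Lalba-high cells of the Brca2mut/WT libraries it stood at 59.5 CPM in the control and 57.8 CPM with HU in pool 1, and at 208 and 53.3 CPM in pool 3. In Lalba-high cells of the wild-type libraries G0s2 stood at 86.5 CPM in the control and 77.2 CPM with HU in pool 1, and at 95.7 and 51.4 CPM in pool 3, so that its wild-type fold was not shared by the pools.

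Between genotypes, both contrasts passed the fold for 1 higher gene (0.02% of 4992) and 9 lower genes (0.18%). The glutathione transferase Gstp1 stood at 16.98 (14.4 to 19.9), 18.2 (15.8 to 20.8), 31.8 (27.8 to 36.2) and 28.2 CPM (25.2 to 31.6). Named among the lower genes were Csn1s1 and Slpi, with the values given above, the basal keratin Krt5 at 23.4, 21.9, 8.15 and 8.36 CPM, Ly6d at 37.2, 31.1, 20.6 and 15.3 CPM, and Gm8797 at 35.5, 53.1, 20.3 and 30.8 CPM. Both Brca2mut/WT values were below both wild-type values in each of these. Basal cells with at least 1000 CPM of Krt14 numbered 586, 787, 261 and 226. They held Krt5 at 3187, 2591, 2042 and 2608 CPM and Slpi at 1094, 876, 758 and 836 CPM. In Lalba-low cells Krt5 stood at 37.1, 31.3, 17.6 and 27.7 CPM. The part of RNA from basal cells in these values was not tested. Krt5 did not stand for the basal list. In controls 2 of the 3 list genes compared passed the fold as higher in Brca2mut/WT cells. These were Acta2 at 17.4 against 26.8 CPM and Vim at 18.7 against 33.2 CPM. In controls the richest 5% of Lalba-high cells held 81.8% of the Acta2 UMIs in wild-type and 92.3% in Brca2mut/WT cells. After HU, 0 of the 2 list genes compared were higher and 1 was lower. Acta2 then stood at 4.71 against 4.74 CPM. Brca2 itself stood at 4.30, 4.29, 4.01 and 3.07 CPM in Lalba-high cells, with intervals that overlap in all 4 libraries (the lowest from 2.11 to 4.31). Counts at the 3' end of a transcript do not show whether an upstream truncation is present, so these values do not check the labels.

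Between conditions the members of the lists past the fold were counted. No gene of the secretory pathway list passed 1.5-fold in any contrast, of 26 or 27 compared, and its median log2 ratio with HU was -0.11 in wild-type and 0.14 in Brca2mut/WT cells. No gene of the prolactin and Stat5 pathway passed the fold either, of 14 or 15 compared. Over all genes compared, 0.136% to 0.787% passed the fold in a given direction, so counts of 0 are near that share. Of the CDK inhibitors and p53 targets, 1 of 11 was higher past the fold with HU in wild-type and 0 of 11 in Brca2mut/WT Lalba-high cells. Of all genes compared, 0.719% and 0.384% were higher. The medians of this list were 0.24 and 0.17, and the same medians in Lalba-low cells were 0.57 and 0.39. Cdkn1a stood at 105 (98.4 to 112), 182 (174 to 190), 143 (134 to 152) and 151 CPM (144 to 159), so that the HU and control libraries lay closer together in Brca2mut/WT than in wild-type cells. Within pools 1 and 3 it was higher with HU in both genotypes, from 73.8 to 116 and from 102 to 120 CPM in wild-type and from 81.9 to 155 and from 89.1 to 135 CPM in Brca2mut/WT cells. Lalba-low cells were also higher with HU in both, at 173, 298, 180 and 281 CPM. Of the antimicrobial and acute phase genes, 4 of 10 were lower with HU in wild-type and 1 of 8 in Brca2mut/WT cells, with medians of -0.28 and -0.22 beside 0.04 and -0.00 over all genes. The shares of all genes compared that were lower were 0.777% and 0.787%. Between genotypes 2 of 9 of the antimicrobial and acute phase genes were lower in controls and 3 of 10 after HU, against 0.29% and 0.506% of all genes. Of the milk proteins 2 of 8 were lower in Brca2mut/WT controls and 3 of 10 after HU, against 0.29% and 0.506% of all genes compared. Their median log2 ratios were -0.26 and 0.07, so that after HU the median lay above 0. The lower genes were Csn1s1 and Spp1 in both contrasts and Ltf after HU. In pool 3 Spp1 was instead higher in Brca2mut/WT cells, at 148.5 against 381.7 CPM in controls and 167.5 against 206.8 CPM after HU. Ltf after HU stood at 11.4 CPM in wild-type and 17.1 CPM in Brca2mut/WT cells of pool 3. Csn1s1 was lower in pools 1 and 3 of both contrasts. With HU against control, 0 of 10 milk protein genes passed the fold in wild-type cells (median -0.10). In Brca2mut/WT cells 1 of 9 was higher with HU (median 0.24), against 0.384% of all genes compared.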

How the data were processed

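Organoids of 4 conditions were profiled with 10x Genomics Chromium chemistry, 1 library per condition. The authors deposited raw UMI counts per gene and cell barcode. Their notes name Cell Ranger 6.0.2, Seurat 4.0, R 4.1.3 and mm10, while the matrix header names software 6.1.1. The series design states 34200 cells, and the files held 33268 barcodes, of which 17360 passed the limits used here. Cells with over 6000 genes were left out, no doublet caller was run, and cells with several antibody tags were kept and left out in an alternative. Library totals were 302135155, 258821284, 243430259 and 258118001 UMIs.

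UMIs were summed over Lalba-high and over Lalba-low cells of each library, giving 8 sums. edgeR 4.0.16 (quasi-likelihood, TMM, library as a block, R 4.3.3) tested genes with at least 5 CPM in at least 4 sums, with Benjamini-Hochberg adjustment over all genes and calls at adjusted p under 0.05. The 9 genes of the selection rule received no call. The 4 libraries differ in condition and serve as the replicates of the difference between the sets. Their titles state 2 replicates each, while the study's text gives 3 mice per condition, and each library holds pooled replicates, so the p-values measure the spread between libraries only. The fit was tested on simulated data. No test was run between conditions, where CPM values carry exact Poisson 95% intervals and shares Clopper-Pearson ones, both for counting error alone. Genes were compared there at 1.5-fold with at least 20 CPM. SE is the standard error of a log2 difference. Pools were assigned from tag counts (at least 50 tag UMIs, 60% from the leading tag and under 20% from the next), and pools with at least 30 cells in both sets were compared.

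The text names the 4 markers, members of the lists, the 15 called genes with the largest change each way that moved alike in all 4 libraries at 20 CPM or more in a set, and up to 5 genes each way past the fold in both contrasts. Members and lists were chosen with earlier results of these data known. Alternatives were DESeq2 1.42.0 and its size factors, library totals, no filter, no library block, each library left out, Lalba limits of 500 and 2000 CPM, deeper, thinned, single-tag and stricter luminal cells, and no upper gene limit. Limiting both sets to 10000 CPM of Csn3, leaving pools out of the shares and the contrasts in Lalba-low cells were added after seeing the data. Promoters came from RefSeq (GRCm38.p6) and gene positions from GENCODE annotation of GRCm38. A few members of the lists are counted but not reported here by name.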

Additional observations from a re-analysis of the deposited data

Results flagged for a closer look

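The share of Lalba-high cells among luminal cells moved oppositely between antibody tag pools. HU minus control was -4.45 percentage points in pool 4 of the wild-type libraries and -13.8 percentage points in pool 4 of the Brca2mut/WT libraries, whereas it was above 0 in pools 1 and 3 of both genotypes. The difference between pools was not tested, since a pool number is not known to stand for the same mice in different libraries.

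Kcne3, a potassium channel subunit, moved oppositely between genotypes in Lalba-high cells. It rose from 18.7 CPM in the wild-type control to 48.3 CPM in wild-type HU, a ratio of 2.58. In Brca2mut/WT cells it stood at 38.1 CPM in the control and 23.6 CPM with HU, a ratio of 0.619. The difference was not tested. In Lalba-low cells Kcne3 stood at 31.4, 90.5, 44.7 and 50.2 CPM.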

How the results depend on the processing

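Against 1852 higher and 1843 lower genes, DESeq2 called 1155 and 1088, library totals 1097 and 2832, and the fit with no replicate block, where the block is the library, 895 and 1038. Leaving out each library in turn gave 1420 to 1596 higher and 1534 to 1640 lower. Of 258 named genes tested, 67 lost their call without the block and 25 in DESeq2, and 7 were counted as reversed under any alternative. These were Krt5 (0.0435) and Mylk (0.0220) in stricter luminal cells, whose limits cut on Krt5, and Krt10 in thinned cells (-0.00379). The others were B4galt1 (-0.00260), Irf7 (-0.0315), Hspa1a (0.0464) and Smr2 (-0.365, adjusted p = 4.73e-05) with both sets at 10000 CPM or more of Csn3. Smr2 alone was past the threshold after the change. Differences near 0 also turned sign outside this count, as in the lactose list, whose median went from 0.003 to -0.06 under library totals.

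A Lalba limit of 2000 CPM gave shares of 4.79%, 8.79%, 5.84% and 10.4% and a wild-type ratio of 1.84, and a limit of 500 CPM gave 15.99%, 21.0%, 16.99% and 23.4% and a wild-type ratio of 1.31. Thinned cells gave 12.7% in the Brca2mut/WT control. The Brca2mut/WT ratio was 1.18 without pool 3 and 1.86 without pool 4.

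Between conditions, genes past the fold numbered 77 (HU, wild type), 61 (HU, Brca2mut/WT), 36 (genotype, control) and 33 (genotype, HU). At 10 CPM they numbered 184, 161, 105 and 79, and at 2-fold 9, 9, 7 and 6. The HU counts were 193 in wild type without pool 3, and 108, 97 and 115 in Brca2mut/WT without pools 1, 3 and 4. The genotype counts were 64 and 132 in controls and 58 and 61 after HU, without pools 1 and 3. The cause was not tested.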
